A study of Homo sapiens with 33 samples.

Results

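RNA-seq of *EZH2*-/+ and *EZH2*+/+ human ESCs was compared gene by gene, to show which transcripts differ when 1 allele of *EZH2* is disrupted. The comparison used 3 *EZH2*-/+ and 3 *EZH2*+/+ libraries, which are 6 of the 12 RNA libraries and of the 33 samples of the series. It covered the 19876 autosomal genes whose level, averaged over the 12 RNA libraries, reached 0.1 RPM (reads of a gene per 1000000 reads of its library), of 34520 autosomal genes and 35805 genes in all. *EZH2*+/+ cells were the parental H9 line, an established human ESC line. *EZH2*-/+ cells were H9 ESCs expanded from single colonies after Cas9 cutting in an early coding exon, with a frameshift on 1 allele. The labels do not say how many such lines the 3 libraries come from, so the genotype and other properties of a clone cannot be told apart. The labels of neither group name a transgene, and in both the ESCs were grown on mouse feeders and sorted for SSEA4. The remaining 6 libraries were *EZH2*-/- ESCs, made by targeting an *EZH2*-/+ line again after a doxycycline-inducible *EZH2* transgene had been added, and the *EZH2*-/- ESCs given doxycycline to restore *EZH2*. These 6 libraries entered the test only to estimate the spread between libraries. The study describes 3 biological replicates per line, and the labels do not say what separates the libraries of a group. The p-values therefore measure the spread between these libraries, which may not cover the spread between independently edited lines. In bulk RNA, fewer cells that express a gene and less RNA of that gene per cell cannot be told apart.

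EZH2 is the main catalytic subunit of Polycomb repressive complex 2 (PRC2), which methylates lysine 27 of histone H3. EED and SUZ12 are required for the complex to be active, RBBP4 binds histones, and EZH1 is a second, weaker catalytic subunit. The resulting H3K27me3 is read by Polycomb repressive complex 1 (PRC1) and marks the promoters of many silent developmental genes in ESCs, often together with H3K4me3.

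The 6 libraries held between 25521205 and 36589089 reads on genes. The library totals that RPM is scaled to lay between 39434354 and 56209143 reads, so that 3 reads corresponded to between 0.0534 and 0.0761 RPM. The transcripts that define ESCs were abundant in every library, with *POU5F1* at 632, 617 and 792 RPM in *EZH2*+/+ and at 1080, 1095 and 947 RPM in *EZH2*-/+ libraries 1, 2 and 3. *EZH2*-/+ library 2 stood apart in Nodal and primitive streak transcripts, with the Nodal inhibitors *CER1* at 358 RPM, *LEFTY1* at 466 RPM and *LEFTY2* at 471 RPM, while the other 5 libraries reached at most 36.6, 69.9 and 43.9 RPM. *EZH2*-/+ library 3 had the highest summed level of cytosolic ribosomal protein transcripts at 72505 RPM, while the other 5 libraries lay between 43244 and 59547 RPM. Feeder fibroblast genes, of which 7 of 9 passed the filter, summed to between 301 and 375 RPM in *EZH2*+/+ libraries. In *EZH2*-/+ libraries they summed to between 252 and 313 RPM. The median log2 difference of the 7 was -0.83, beside -0.088 over all genes tested. Of the 7 genes 6 had a negative difference, 2 of them without overlap, beside 63.8% and 11.9% of all genes tested. None of the 7 was called without the replicate block. *DCN* and *FAP* were under the filter, and *COL1A1* was lower with the replicate block only (log2 difference -1.05; adjusted p = 0.58 without and 0.024 with it, limma).

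*EZH2* itself (chr7:148807383-148884321, GRCh38) was measured at 68.6, 63.3 and 59.5 RPM in *EZH2*+/+ and at 55.4, 52.3 and 45.7 RPM in *EZH2*-/+ libraries 1, 2 and 3. Every *EZH2*-/+ library was below every *EZH2*+/+ library, which was also true of 11.9% of all genes tested. The means were 51.2 ± 4.95 RPM in *EZH2*-/+ and 63.8 ± 4.56 RPM in *EZH2*+/+ (SD, n = 3). The difference was -0.32 on the log2(RPM + 0.1) scale, the scale of all log2 differences given here, with a standard error of 0.17, and it did not pass the test (adjusted p = 0.56, limma; 0.29 with the replicate number as a block). *EZH2*-/- ESCs averaged 9.95 RPM and the restored ESCs 304 RPM, the latter including reads from the transgene. The reads count transcripts with and without the frameshift alike, so the level does not measure the functional allele alone.

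None of the other core subunits passed the test. *EED* differed by -0.17 (SE 0.13) with libraries that did not overlap, at 22.7, 22.2 and 23.3 RPM in *EZH2*+/+ and 19.9, 19.6 and 21.4 RPM in *EZH2*-/+. *RBBP4* differed by -0.11 (SE 0.11), also without overlap, as were 11.9% of all genes tested in this direction. *SUZ12* differed by -0.14 (SE 0.22) and *EZH1* by -0.40 (SE 0.21), both with overlapping libraries. Without *EZH2*-/+ library 3 the *SUZ12* difference turned to 0.085. Among 8 accessory subunits of PRC2 none was called. *C17orf96*, also known as *EPOP*, was called lower only with the replicate block, at 42.8, 27 and 39.1 RPM in *EZH2*+/+ and 19, 14.3 and 20.7 RPM in *EZH2*-/+ (adjusted p = 0.17 without and 0.013 with the block, limma).

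**Figure D1:**
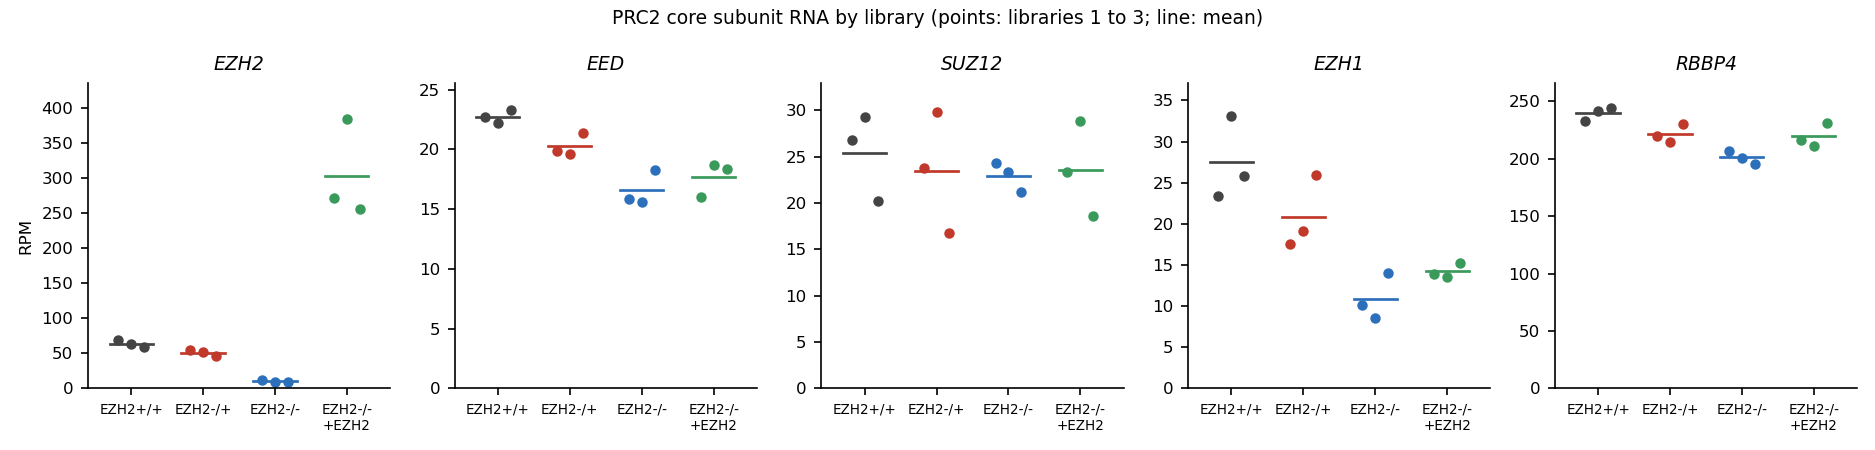
Level in RPM (vertical axes, starting at 0) of the 5 core PRC2 subunit genes in the 3 libraries of each of the 4 genotypes; points are libraries and lines are means. *EZH2* in *EZH2*-/+ libraries lies between 45.7 and 55.4 RPM, below the *EZH2*+/+ libraries at 59.5 to 68.6 RPM and far above the *EZH2*-/- mean of 9.95 RPM.

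Of the 19876 genes, 193 (0.971%) were lower and 34 (0.171%) were higher in *EZH2*-/+ ESCs (limma, Benjamini-Hochberg adjusted p under 0.05). In all 227 (1.14%) the 3 libraries of each genotype did not overlap, which was also true of 15.0% of all genes tested. The lower genes had a median log2 difference of -2.03 with 98 genes past a size of 2, and the higher genes had a median of 1.20 and 5 genes past that size. The median *EZH2*+/+ level of the lower genes was 6.92 RPM and their median *EZH2*-/+ level was 1.03 RPM, and 20 of them had at most 3 reads in every *EZH2*-/+ library. The higher genes had medians of 8.60 RPM in *EZH2*+/+ and 18.9 RPM in *EZH2*-/+. At an unadjusted p under 0.05, 488 genes (2.46%) were higher and 1606 (8.08%) lower. Over all genes tested the median log2 difference was -0.088, and 63.8% of the differences were negative. Median ratio scaling in place of RPM moved that median to 0.007 and the calls to 54 higher and 123 lower, so that the share of lower calls went from 85.0% to 69.5%.

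The number of calls depended on which libraries set the spread. With the replicate number as a block, 142 genes (0.714%) were higher and 432 (2.17%) lower, including all 34 and all 193. With the 6 libraries alone, 10 genes (0.0503%) were lower and 0 higher by limma, while 1520 and 394 had an unadjusted p under 0.05. The 10 included *DUSP23*, *SP5*, *FST*, *ZNF382* and *CLEC10A*. Leaving out *EZH2*-/+ library 2, which stood apart in Nodal transcripts, left 7 higher and 56 lower calls, and leaving out *EZH2*+/+ library 2 left 6 and 57. The calls were 18 and 71 without *EZH2*+/+ library 1, 17 and 187 without *EZH2*+/+ library 3, and 17 and 93 without *EZH2*-/+ library 1. Without *EZH2*-/+ library 3 they were 144 and 429. In all 6 of these fits 47 of the lower genes and 4 of the higher genes, *ESRP1*, *PHLDA1*, *S100A6* and *ZNF619*, were called.

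**Figure D2:**
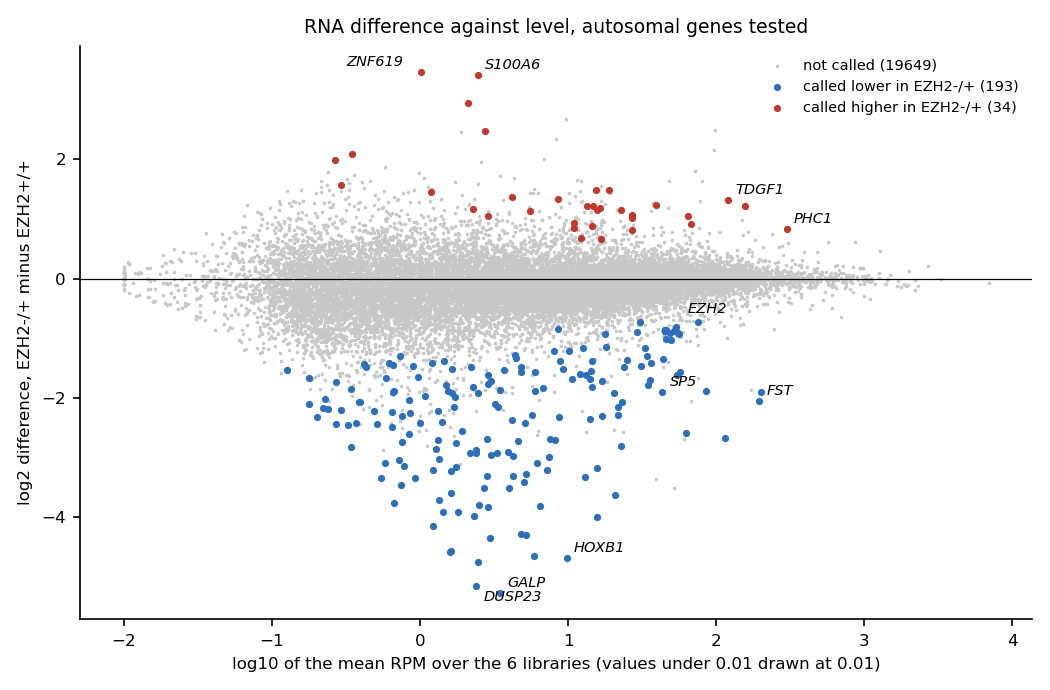
Mean level over the 6 libraries (horizontal axis, log scale, RPM) against the log2 difference *EZH2*-/+ minus *EZH2*+/+ (vertical axis) of the 19876 autosomal genes, with the 193 lower and 34 higher calls coloured. The lower calls reach -5.26 and the higher calls 3.47, and most genes lie close to the median of -0.088.

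HOX genes, which encode the homeodomain factors that set position along the body axis, were near the detection limit in *EZH2*-/+ ESCs. Of 39 HOX genes 21 passed the filter. Of these 21, 6 fell and none rose (median -0.64), beside 0.971% lower over all genes tested. Their summed level was 36.4, 84.6 and 19.99 RPM in *EZH2*+/+ libraries 1, 2 and 3 and 2.89, 0.97 and 1.44 RPM in the *EZH2*-/+ libraries. *EZH2*+/+ library 2 was thus the highest, and the groups did not overlap. All 6 lie at the 3′ ends of their clusters. The lowest of them, *HOXC4*, was at 0.333, 0.558 and 0.175 RPM in *EZH2*+/+ and had 0 reads in each *EZH2*-/+ library, at least 5.56-fold lower against a floor of 3 reads per library.

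The promoter of *HOXB1*, the HOX gene with the largest difference, is shown because its H3K27me3 also differed between the genotypes. It is the 250 bases before the RefSeq start (GRCh38.p14, chr17:48531012-48531261, minus strand, 5′ to 3′), with 1 match to the letters CTTTGA, the core that TCF/LEF factors recognise, in capitals.
HOXB1: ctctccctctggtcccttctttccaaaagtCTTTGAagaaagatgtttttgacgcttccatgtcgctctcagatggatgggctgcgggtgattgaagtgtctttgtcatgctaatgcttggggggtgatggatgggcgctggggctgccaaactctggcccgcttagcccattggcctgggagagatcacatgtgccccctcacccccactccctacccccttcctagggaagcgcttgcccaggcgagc

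*HOXB1* (chr17:48528526-48530997) was at 13.8, 35.8 and 7.65 RPM in *EZH2*+/+ and at 0.735, 0.389 and 0.463 RPM in *EZH2*-/+, a log2 difference of -4.68 (SE 0.51, adjusted p = 0.0015, limma). *HOXB2* went from 6.46, 20.3 and 3.71 RPM to 0.367, 0.216 and 0.356 RPM (log2 difference -4.30, SE 0.54). The *EZH2*-/+ levels correspond to 30, 18 and 26 reads for *HOXB1* and 15, 10 and 20 reads for *HOXB2*. Within *EZH2*+/+ the libraries differed several-fold in the same order for both genes. The noncoding RNA *HOTAIRM1* of the HOXA cluster fell by 4.35 (SE 0.60). Counting was not directional, so reads where it overlaps a neighbouring gene cannot be assigned to one strand. *HOXA2* fell by 3.91 and *HOXB3* by 3.97. *MEIS2*, a homeodomain cofactor of HOX proteins and a member of the cardiac and lateral mesoderm list, was at 26.5, 40.4 and 21.0 RPM in *EZH2*+/+ and 1.69, 0.627 and 4.22 RPM in *EZH2*-/+ (log2 difference -3.99, SE 0.62, adjusted p = 0.0089, limma). It was the only one called of 14 tested members of that list.

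Of 18 tested neuroectoderm regulators 3 fell and none rose (median -0.61), beside 0.971% lower over all genes tested. *ZIC1* was also lower with the block (log2 difference -2.06, adjusted p = 0.14 without and 0.025 with it, limma). *SOX1*, an early marker of neural progenitors, was at 9.41, 9.33 and 3.50 RPM in *EZH2*+/+ and 0.539, 0.194 and 1.09 RPM in *EZH2*-/+ (log2 difference -3.50, SE 0.49, adjusted p = 0.0051). The neuronal POU factor *POU3F2* fell by 2.98 (SE 0.62) and the neural crest factor *PAX3* by 2.68 (SE 0.47). *PAX6* differed by -1.91 and was not called (adjusted p = 0.11, 0.075 with the block, limma). The neurotrophin receptor *NTRK2* was at 11.5, 18.2 and 4.55 RPM in *EZH2*+/+ and 0.416, 0.0216 and 0.907 RPM in *EZH2*-/+ (log2 difference -4.64, SE 0.72). *ZEB2*, a repressor that acts in neural crest and in epithelial to mesenchymal transition, fell by 1.78 (SE 0.33), the only call among 20 tested mesenchyme and matrix genes. *EGR2*, a hindbrain factor and immediate early gene, fell by 2.90 (SE 0.50), the only call among 12 tested immediate early genes. Of 13 neuron genes none was called, and *STMN2* and *MAP2* were called lower with the block. *EZH2*+/+ library 3 was the lowest of its group in 144 of the 193 lower genes.

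**Figure D3:**
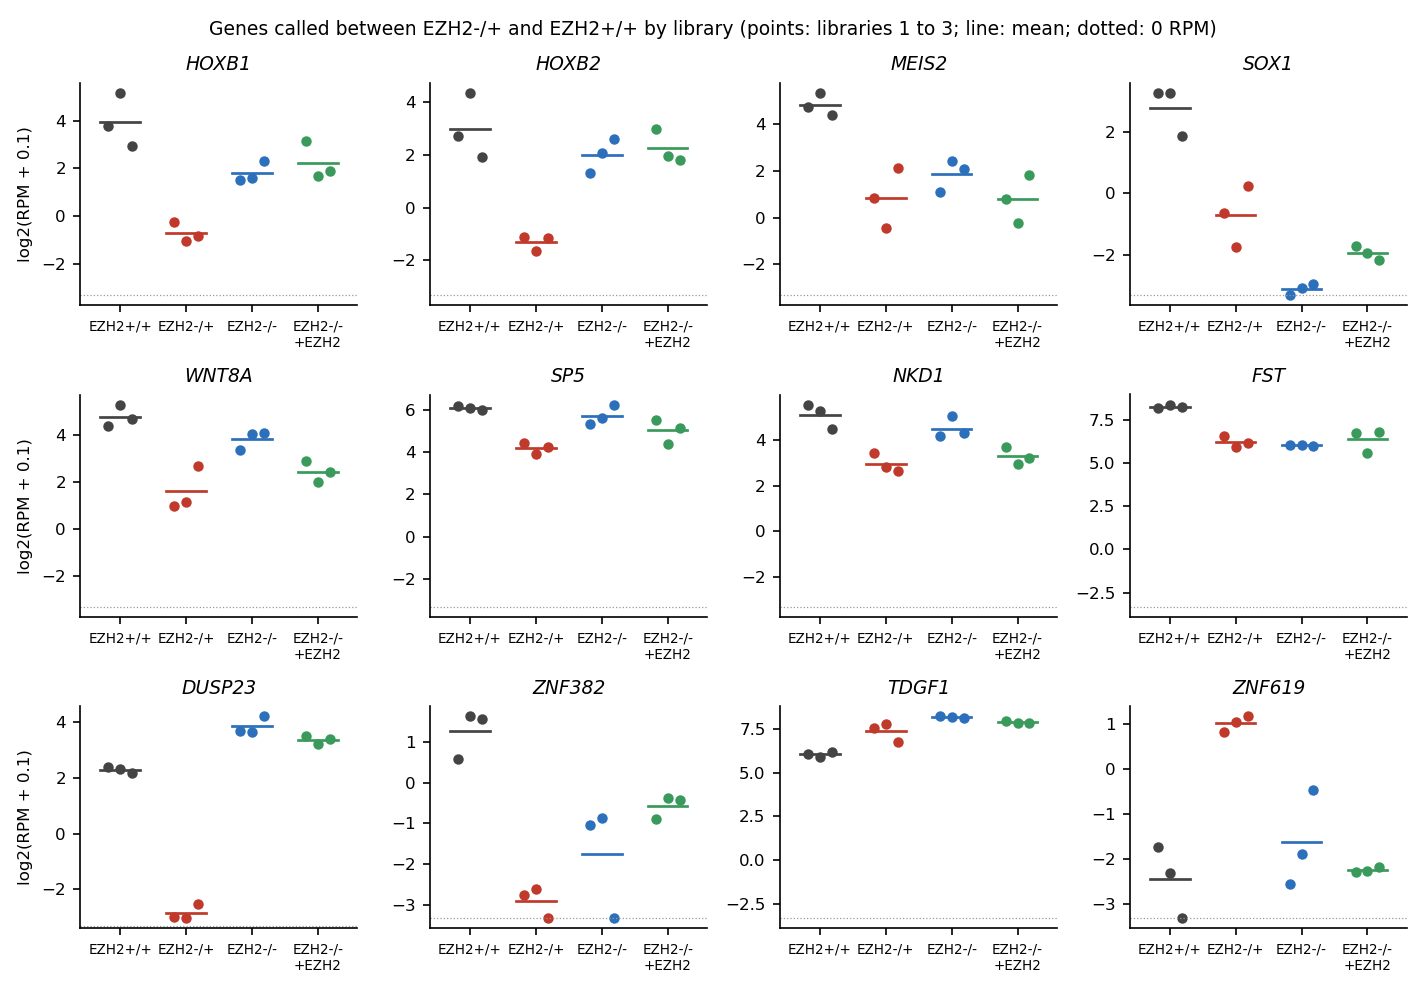
Level of 12 named genes in the libraries of the 4 genotypes (vertical axis, log2(RPM + 0.1); points are libraries, lines are means and the dotted line is 0 RPM). *HOXB1*, *HOXB2*, *MEIS2*, *SOX1*, *WNT8A*, *SP5*, *NKD1*, *FST*, *DUSP23* and *ZNF382* are lower in *EZH2*-/+ than in *EZH2*+/+ without overlap, and *TDGF1* and *ZNF619* are higher without overlap.

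The WNT pathway list combined ligands, receptors and targets. WNT ligands bind Frizzled receptors and stabilise beta-catenin, which acts with TCF/LEF factors on target genes. Of 16 tested members 4 fell and none rose (median -1.08), beside 0.971% lower over all genes tested. With the replicate block 7 were lower and 1 higher, beside 2.17% and 0.714% of all genes tested. The summed level of the 16 was 1245, 778 and 965 RPM in *EZH2*+/+ libraries 1, 2 and 3. In *EZH2*-/+ libraries it was 994, 863 and 929 RPM, within the *EZH2*+/+ range. The ligand *WNT8A* was at 20.4, 38.6 and 25.3 RPM in *EZH2*+/+ and 1.86, 2.12 and 6.23 RPM in *EZH2*-/+ (log2 difference -3.17, SE 0.41, adjusted p = 0.0035, limma). The other called members, *SP5*, *NKD1* and *AXIN2*, are all targets of the pathway, and *NKD1* and *AXIN2* encode feedback inhibitors.

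The promoter of *SP5* is shown because it held the most matches to the TCF/LEF core letters among the WNT members. It is the 250 bases before the RefSeq start (GRCh38.p14, chr2:170715087-170715336, plus strand), with its 3 matches to CTTTGA, which reads as TCAAAG from the other strand, in capitals.
SP5: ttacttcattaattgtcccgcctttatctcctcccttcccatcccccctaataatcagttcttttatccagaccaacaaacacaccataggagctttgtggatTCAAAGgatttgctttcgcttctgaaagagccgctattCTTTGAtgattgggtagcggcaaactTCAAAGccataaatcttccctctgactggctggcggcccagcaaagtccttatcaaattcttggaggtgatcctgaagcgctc
Of the 16 members 11 had a promoter in the RefSeq table, and 2, *SP5* and *DKK1*, held these letters. Over all 35116 promoters of this length 11.2% did, as did 20 of 139 (14.4%) of genes called lower and 0 of 20 called higher that had a promoter in the table, beside 8.07% of the 11760 autosomal genes tested that had one. A match is a run of letters and not evidence of binding.

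*SP5* was at 72.4, 68.3 and 64.2 RPM in *EZH2*+/+ and 21.5, 14.9 and 19 RPM in *EZH2*-/+, a log2 difference of -1.90 (SE 0.28, adjusted p = 0.0078, and 0.044 with the 6 libraries alone, limma). *NKD1* went from 46.8, 38.0 and 22.2 RPM to 10.7, 6.83 and 6.03 RPM (log2 difference -2.15, SE 0.32). *AXIN2* went from 75.5, 58.1 and 65.1 RPM to 38.5, 32.0 and 27.7 RPM (-1.02, SE 0.19). In all 3 targets the highest *EZH2*-/+ library lay well under the lowest *EZH2*+/+ library. With the block *WNT5B* (log2 difference -1.91), the transcription factors *LEF1* (-2.61) and *TCF7* (-0.94) were also lower and the receptor *FZD5* (1.63) was higher. *DKK1*, a secreted inhibitor, differed by -0.24 with wide overlap, from 4.94 to 11.4 RPM in *EZH2*+/+ and from 1.71 to 20.5 RPM in *EZH2*-/+.

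BMP and Nodal ligands act through separate SMAD proteins and were listed separately. Of 14 tested BMP pathway members *MSX1*, a homeobox target, fell by 2.56 (SE 0.53) and none rose. With the block *ID2* (log2 difference -1.40), *NOG* (-2.30) and *MSX2* (-2.29) were lower as well. Over all genes tested 0.971% were lower, and 2.17% with the block. Of 13 Nodal and Activin pathway members 1 rose and 1 fell, beside 0.171% and 0.971% of all genes tested. The Activin inhibitor *FST* was at 292, 340 and 309 RPM in *EZH2*+/+ and 94.9, 62.5 and 73.2 RPM in *EZH2*-/+ (log2 difference -2.05, SE 0.27, adjusted p = 0.0034, and 0.044 with the 6 libraries alone, limma). The Nodal co-receptor *TDGF1* was at 67.4, 60.6 and 73.0 RPM in *EZH2*+/+ and 190, 225 and 110 RPM in *EZH2*-/+ (log2 difference 1.32, SE 0.21, adjusted p = 0.010, limma). The groups did not overlap for either gene. *NODAL* (log2 difference 0.98), *LEFTY1* (2.16) and *LEFTY2* (2.48) were not called (adjusted p = 0.78, 0.62 and 0.30, limma), with *LEFTY2* called by the block (0.024). Their *EZH2*-/+ levels ranged from 2.78 to 49.0, 3.90 to 466 and 26.1 to 471 RPM, each with library 2 the highest.

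*TDGF1* was also the only call among 20 tested pluripotency factors, whose median difference was 0.47. With the block 6 were called higher, beside 0.714% of all genes tested. Added to *TDGF1* were *POU5F1* (log2 difference 0.62, adjusted p = 0.095 without and 0.029 with the block, limma), *DPPA4* (0.53), *TERF1* (0.99), *FGF2* (0.76) and *OTX2* (1.31). *SOX2* differed by -0.28 and *NANOG* by 0.71 with overlapping libraries, and neither was called. Among 9 naive pluripotency factors *DPPA3* rose by 2.09 (SE 0.45, adjusted p = 0.045, limma) but stayed under 1 RPM, at 0.0888, 0 and 0.131 RPM in *EZH2*+/+ and 0.661, 0.799 and 0.391 RPM in *EZH2*-/+. The summed level of the pluripotency factors was between 2721 and 3248 RPM in *EZH2*+/+ and between 3590 and 4256 RPM in *EZH2*-/+.

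Several of the largest falls were in genes outside these lists. The 2 promoters below are shown because the genes were almost silent in *EZH2*-/+ and their H3K4me3 was lower too. They are the 250 bases before the RefSeq start of the phosphatase gene *DUSP23* (GRCh38.p14, chr1:159780712-159780961, plus strand) and of the zinc finger gene *ZNF382* (chr19:36605063-36605312, plus strand), with CG dinucleotides in capitals.
DUSP23: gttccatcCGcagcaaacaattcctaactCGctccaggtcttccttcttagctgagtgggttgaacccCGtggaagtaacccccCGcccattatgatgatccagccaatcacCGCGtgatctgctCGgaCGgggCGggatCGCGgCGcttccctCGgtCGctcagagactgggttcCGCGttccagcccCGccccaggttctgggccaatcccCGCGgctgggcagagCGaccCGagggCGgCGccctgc
ZNF382: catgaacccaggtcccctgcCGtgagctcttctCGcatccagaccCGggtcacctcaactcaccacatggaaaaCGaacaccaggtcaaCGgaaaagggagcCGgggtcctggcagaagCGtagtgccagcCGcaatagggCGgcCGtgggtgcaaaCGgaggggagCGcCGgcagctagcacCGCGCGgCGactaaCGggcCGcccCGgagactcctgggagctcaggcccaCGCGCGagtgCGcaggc
They held 23 and 24 CG dinucleotides with 64.8% and 67.2% G and C, beside a median of 20 CG over the promoters of the autosomal genes tested that were in the table. *SP5* and *HOXB1* held 6 and 7.

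*DUSP23* (chr1:159780932-159782543) had 231, 190 and 200 reads in *EZH2*+/+ and 1, 1 and 4 reads in *EZH2*-/+, which is 5.13, 4.82 and 4.37 RPM and 0.0245, 0.0216 and 0.0712 RPM. Its log2 difference of -5.15 (SE 0.23) had the smallest adjusted p of all genes named here, 2.6e-07 (limma; 0.0045 with the 6 libraries alone). It averaged 14.6 RPM in *EZH2*-/- and 10.3 RPM in restored ESCs, higher than in *EZH2*-/+ by 6.72 and 6.24 (log2). *ZNF382* was at 1.40, 2.99 and 2.86 RPM in *EZH2*+/+ and 0.0490, 0.0648 and 0 RPM in *EZH2*-/+ (log2 difference -4.15, SE 0.56, adjusted p = 0.0042), and at means of 0.279 RPM in *EZH2*-/- and 0.582 RPM in restored ESCs. The nearby *ZNF461* fell by 1.64 (SE 0.33), and *ZNF382* overlaps another gene, so its reads could be shared. These were the 2 lower calls among 210 tested zinc finger genes of chromosome 19, close to the 0.971% lower over all genes tested. In that list *ZNF90* rose by 1.57 (SE 0.31), from at most 0.153 RPM to at least 0.411 RPM.

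Several genes restricted to other tissues were also among those that fell most. *GALP*, a hypothalamic neuropeptide gene, was at 3.55, 13.9 and 3.10 RPM in *EZH2*+/+ and 0.0490, 0.0648 and 0.0178 RPM in *EZH2*-/+, the largest fall (log2 difference -5.26, SE 0.64). *CLEC10A*, a lectin of macrophages and dendritic cells, fell by 4.74 (SE 0.43), from 216, 277 and 120 reads to 5, 0 and 7 reads. *FGF3*, a secreted growth factor, fell by 4.57 (SE 0.51). *MYBPC1*, a muscle protein gene, was at 1.78, 6.87 and 0.940 RPM in *EZH2*+/+ and had 0 reads in all *EZH2*-/+ libraries, at least 50.0-fold lower against the floor of 3 reads per library, and at least 21.3-fold lower without *EZH2*+/+ library 2. *GALP*, *CLEC10A*, *FGF3* and *MYBPC1* averaged at most 0.105 RPM in each genotype other than *EZH2*+/+. They passed the filters through their *EZH2*+/+ levels, so they could be named only as lower. *FAS*, a death receptor and p53 target, fell by 1.38 (SE 0.30) as the only call of 14 tested p53 targets. *PLAGL1*, an imprinted zinc finger gene, fell by 1.83 (SE 0.39) as the only call of 21 tested imprinted genes. *DLK1*, another imprinted gene, was called lower with the block only, at 119, 78.8 and 67.6 RPM in *EZH2*+/+ and 6.27, 1.71 and 37.9 RPM in *EZH2*-/+.

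Of 49 tested clustered protocadherins, cell adhesion genes of neurons, 21 were called lower, beside 0.971% of all genes tested. All 21 were among the 22 tested *PCDHG* genes, whose differences lay between -0.81 and -0.93, and none of the other 27 was called. *PCDHGC3* was at 72.4, 70.9 and 59.9 RPM in *EZH2*+/+ and 39.3, 31.4 and 39.4 RPM in *EZH2*-/+. The *PCDHG* transcripts share their last exons, and their annotated spans end at the same base, so the 21 calls largely count the same reads and stand for 1 locus.

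The genes that rose were fewer and their median difference smaller. *ZNF619* (chr3:40477113-40490236) had 9, 4 and 0 reads in *EZH2*+/+ and 68, 91 and 121 reads in *EZH2*-/+, a log2 difference of 3.47 (SE 0.50, adjusted p = 0.0061, limma). It averaged 0.288 RPM in *EZH2*-/- and 0.110 RPM in restored ESCs, lower than in *EZH2*-/+ by 2.65 and 3.27 (log2). These differences share the *EZH2*-/+ libraries through which *ZNF619* was chosen, so they are no separate support. *S100A6*, a calcium-binding protein gene, was at 0.710, 0.101 and 0.328 RPM in *EZH2*+/+ and 3.01, 3.82 and 6.81 RPM in *EZH2*-/+ (log2 difference 3.41, SE 0.50). The metallothionein *MT1G* was at 0.178, 0.456 and 0.371 RPM in *EZH2*+/+ and 1.67, 2.31 and 7.69 RPM in *EZH2*-/+ (2.94, SE 0.57). It was the only call of 7 tested metallothioneins, near-identical genes whose reads could be shared.

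*PHLDA1*, which is induced by growth factor signalling, was at 19.1, 22.6 and 28.2 RPM in *EZH2*+/+ and 48.1, 64.1 and 51.7 RPM in *EZH2*-/+ (log2 difference 1.23, SE 0.16, adjusted p = 0.0036, limma). *RP11-290L1.3* lies within its span, and its rise of 1.33 counts reads of the same place. The microtubule-associated *MAP7* rose by 1.49 (SE 0.28), the orphan receptor *GPR176* by 1.48 (SE 0.32), *TRIM38* by 1.45 (SE 0.30), the retinoic acid synthesis enzyme *ALDH1A3* by 1.36 (SE 0.25) and the lipid-binding *OSBPL10* by 1.22 (SE 0.19). The noncoding *XXbac-BPG27H4.8* rose by 2.48 (SE 0.40). *XXbac-BPG27H4.8*, *TRIM38*, *ZNF619* and *S100A6* averaged under 1 RPM in *EZH2*+/+. They passed the naming filter through their *EZH2*-/+ levels, so they could be named only as higher. Among 21 tested PRC1 subunits *PHC1* rose by 0.84 (SE 0.17), from 234, 178 and 230 RPM to 409, 423 and 318 RPM. *CBX8*, a subunit that binds H3K27me3, fell by 1.52 (SE 0.33), from 1.71, 2.87 and 2.84 RPM to 0.637, 0.627 and 1.16 RPM.

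In 20 of the 36 lists no member was called, and in 13 of these the block gave none either. The 14 tested primitive streak regulators had a median of -0.37 and no call. Their summed level was 83.5, 69.6 and 34.9 RPM in *EZH2*+/+ and 100.0, 467 and 18.4 RPM in *EZH2*-/+ libraries 1, 2 and 3, so that the *EZH2*-/+ libraries lay on both sides of the *EZH2*+/+ range. The streak gene *T* differed by -1.15 and *EOMES* by 0.16, both with overlap. Endoderm regulators (14 tested) and trophectoderm and amnion genes (10 tested) had no call by either fit, with medians of 0.26 and -0.24. Mitosis and DNA replication genes, 20 tested in each list, had medians of -0.17 and -0.06 and no call. Glycolysis, cholesterol synthesis, interferon, germline and histone genes had none either, nor had the DNA methylation enzymes or the demethylases and writers of H3K27 and H3K4. Of 79 cytosolic ribosomal protein genes none was called, and *RPL22L1* (log2 difference 0.64) was with the block. Likewise the block alone gave *FGF2* among 12 FGF and ERK feedback genes, the CDK inhibitor *CDKN1B* (-0.59) among 7, and the cystine transporter *SLC7A11* (-1.0) among 12 ATF4 stress genes.

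ChIP-seq of the same genotypes gave H3K27me3, H3K4me3 and H3K27ac levels within 2.5 kb on either side of the annotated starts. Each genotype had 1 column per mark, so these values have no replicate error and no test. A gene with several starts was represented by its window with the most H3K27me3 in *EZH2*+/+. With the thresholds of the study's methods applied to that window, 4564 of the 19832 tested genes with a window (23%) had an H3K27me3 promoter in *EZH2*+/+. The window was chosen here and the count was 2974 with the first listed window, so it is not the set used in the study. The share was 101 of 193 (52.3%) in the lower genes and 18 of 34 (52.9%) in the higher genes. Among the 101, H3K27me3 was higher in *EZH2*-/+ in 95 (94.1%), with a median log2 difference of 0.52, while over all 4564 it was higher in 2577 (56.5%), with a median of 0.05. With the first listed window in place of the window richest in H3K27me3, these were 69 of 75 (92.0%) and 1672 of 2974 (56.2%). Among the 18 higher genes with such a promoter, H3K27me3 was higher in 4.

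Higher H3K27me3 was measured at several HOX and WNT genes named above. H3K27me3 went from 13.9 RPM in *EZH2*+/+ to 29.8 RPM in *EZH2*-/+ at *HOXB1* and from 18.2 to 41.3 RPM at *HOXB2*. At *HOXB1* the H3K4me3 values were close to each other, at 12.6 and 12 RPM. At *SP5* H3K27me3 went from 6.78 to 26.4 RPM, at *NKD1* from 5.63 to 13.1 RPM and at *MEIS2* from 8.91 to 22.7 RPM. All 5 promoters held both marks in both genotypes, the state called bivalent. *AXIN2* (2.01 and 2.48 RPM), *WNT8A* (0.828 and 2.11 RPM) and *FST* (1.33 and 0.601 RPM) had little H3K27me3 in either genotype, and their transcripts fell.

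At other genes the marks differed in other ways. At *TDGF1* H3K27me3 went from 11.2 to 2.07 RPM, H3K4me3 from 14.5 to 28.5 RPM and H3K27ac from 2.67 to 5.13 RPM. At *PHLDA1* H3K27me3 went from 3.23 to 1.03 RPM. At *DUSP23* both H3K27me3, from 3.61 to 1.40 RPM, and H3K4me3, from 3.55 to 1.25 RPM, were lower in *EZH2*-/+. At *ZNF382* H3K4me3 went from 8.46 to 3.39 RPM and H3K27ac from 0.818 to 0.226 RPM, with H3K27me3 at 4.99 and 3.55 RPM. At *ZNF619* H3K4me3 went from 1.90 to 5.06 RPM. The H3K4me3 column of *EZH2*-/+ was higher in general, with a median log2 difference of 0.40 over all promoters. At promoters without H3K27me3 of genes under 10 RPM in *EZH2*+/+, as *DUSP23* and *ZNF382* are, the median was 0.03, and it was -0.31 for genes under 1 RPM.

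**Figure D4:**
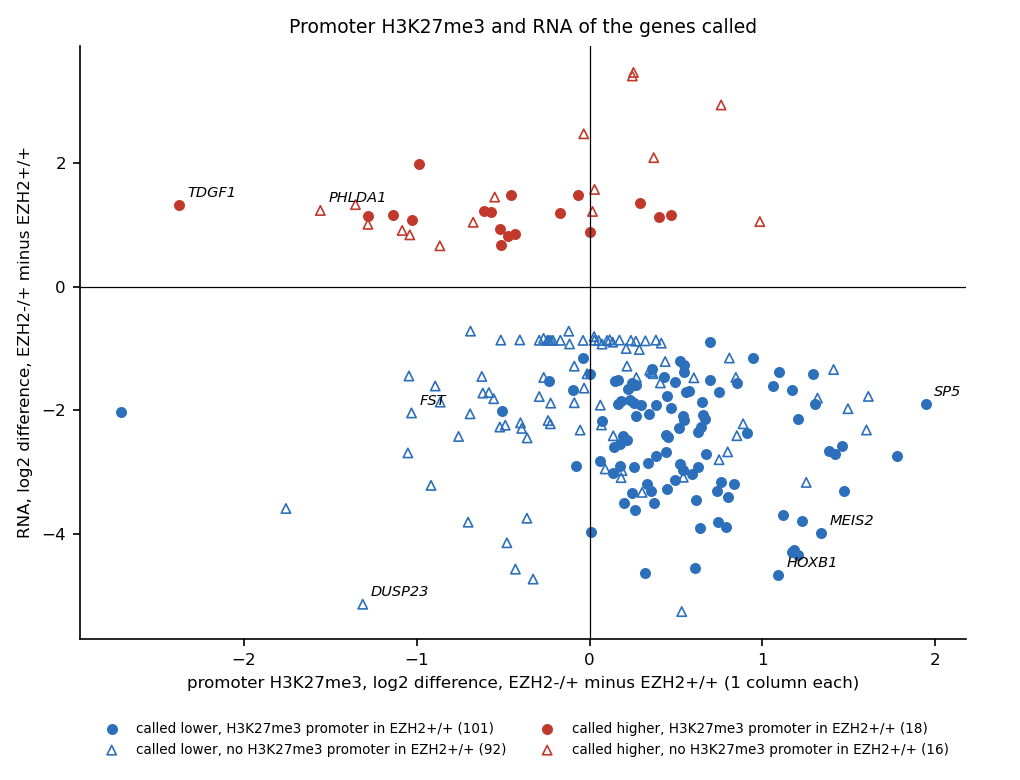
Log2 difference of promoter H3K27me3 (horizontal axis) against the log2 difference of RNA (vertical axis), both *EZH2*-/+ minus *EZH2*+/+, for the 227 called genes, with genes that had an H3K27me3 promoter in *EZH2*+/+ marked. Most lower genes lie right of 0, as 140 of 193 (72.5%) had more H3K27me3 in *EZH2*-/+. Of the 34 higher genes 11 (32.4%) did, close to the 36.2% of all 19832 tested genes with a window.

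Position along the chromosomes was checked with the RNA and the ChIP input in windows of 10 Mb, of which 247 held at least 20 genes averaging 1 RPM or more over the 12 libraries, the genes used here. Median RNA differences ranged from -0.33 to 0.39 and median input differences from -0.07 to 0.36. Between 80 and 90 Mb of chromosome 15 the input difference was 0.27 and the RNA difference 0.09, with 2 higher calls, and between 90 and 100 Mb they were 0.36 and 0.22, with 1. Chromosome 15 held 732 (3.68%) of the genes tested and 6 of the 34 higher genes. Of the 6, *ALDH1A3* lies just past 100 Mb, in a window with too few genes. It overlaps *RP11-66B24.4*, also among the 6, so reads could be shared between them. *GPR176* lies between 30 and 40 Mb, where the input difference was 0.07 and the RNA difference -0.05. Between 50 and 90 Mb of chromosome 17, where *AXIN2* and *CBX8* lie, the 4 windows had RNA medians of -0.33, -0.25, -0.25 and -0.30 and input medians of -0.03, -0.07, 0.03 and 0.08. The adjoining window from 40 to 50 Mb, which holds the HOXB genes and *EZH1*, had an RNA median of -0.18 and an input median of 0.05. Over all windows the medians of these values were -0.07 and 0.07. The part of these regional differences in the results of the genes there was not tested.

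The other genotypes are given side by side. Differences from *EZH2*+/+ all share the same *EZH2*+/+ libraries. Differences from *EZH2*-/+, here and above, share the *EZH2*-/+ libraries, whose levels also chose the genes. For the 193 lower genes the median log2 difference was -1.56 in *EZH2*-/- and -1.83 in restored ESCs, beside medians of -0.15 and -0.16 over all genes tested. For the 34 higher genes it was 1.71 and 1.10. *FST* was at means of 66.5 RPM in *EZH2*-/- and 89.6 RPM in restored ESCs, near its *EZH2*-/+ levels. *SP5* was at 55.0 and 34.4 RPM and *AXIN2* at 64.0 and 45.6 RPM, both with the *EZH2*-/- mean above every *EZH2*-/+ library. *HOXB1* averaged 3.54 RPM in *EZH2*-/- and 5.18 RPM in restored ESCs, lower than in *EZH2*+/+. These levels were higher than in *EZH2*-/+ by 2.53 and 2.95 on the log2 scale. *HOXB1* was chosen for its fall in *EZH2*-/+, so these differences from *EZH2*-/+ are no separate support. *TDGF1* averaged 291 and 236 RPM, and its level was higher in *EZH2*-/- than in *EZH2*-/+ by 0.80 (adjusted p = 0.019, limma).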

How the data were processed

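RNA was measured in 12 libraries, 3 for each of 4 genotypes. The authors trimmed reads with Trim Galore 0.4.0, aligned them to GRCh38 with TopHat2 2.0.12, counted them without regard to strand over Ensembl gene models in SeqMonk and deposited log2 RPM values, in which a gene without reads is set to 0.9 of 1 read. Those values were set to 0, and whole reads were recovered from the rest (100% of values below 1000 reads within 0.02 reads of a whole number). Between 25521205 and 36589089 reads on genes per library set the precision, and floors of 3 reads cover counting error only. The deposited ChIP values are also log2 RPM, in 5 kb windows, with 1 column per genotype and mark.

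limma 3.58.1 (R 4.3.3) was fitted with a trended variance on log2(RPM + 0.1) over all 12 libraries and 20608 genes averaging 0.1 RPM or more, and the difference of *EZH2*-/+ and *EZH2*+/+ was called at a Benjamini-Hochberg adjusted p under 0.05 (two-sided). The fit was tested on simulated data. Same-numbered *EZH2*-/+ and *EZH2*+/+ libraries deviated together (correlations of deviations from 0.11 to 0.56, mean 0.34). Deviations cancel within a genotype, so the mean of -0.17 between different numbers largely follows from this and is no separate support. The numbers were taken to pair libraries, and the replicate number was used as a block in an alternative. No 2 libraries were identical.

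Named genes were the core PRC2 subunits, up to 12 genes called in each direction with the largest differences among those averaging 1 RPM or more over the 6 libraries without overlap, and from each gene list up to 4 called members per direction, or where none was called the 2 with the smallest p. Other genes named, such as those called with the block only, were chosen after their values were seen. The genes, gene lists and tests were chosen with earlier results of these data known. Alternatives were the block, other pseudocounts, filters and scalings, the 6 libraries alone, each library left out, and limma voom on recovered reads. Promoter sequences came from RefSeq (GRCh38.p14) and were matched by symbol, with 11760 of the autosomal genes tested in that table. Genes on the sex chromosomes were fitted but not described, and ChIP columns beyond those named were not used here. Some results within the named-gene rule are not reported here.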

Additional observations from a re-analysis of the deposited data

How the results depend on the processing

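With the replicate number as a block, which the pairing of the libraries allows, the calls went from 34 higher and 193 lower to 142 and 432, and this block changed no call of these 227 genes. A minimum mean of 1 RPM gave 29 and 126, no filter 2 and 44, and median ratio scaling 54 and 123, all 34 and 123 of the 193 among them. Pseudocounts of 0.5 and 1 RPM gave 33 and 218 and 32 and 227. The 6 libraries alone gave 0 and 10 (394 and 1520 at an unadjusted p under 0.05, limma), and with the block 0 and 0 (614 and 2103 unadjusted). Leaving out 1 library gave between 6 and 144 higher and between 56 and 429 lower calls. Leaving out a number from all genotypes gave 0 and 1 for number 1 (293 and 688 unadjusted, limma), 0 and 1 for number 2 (125 and 596 unadjusted) and 346 and 836 for number 3; the cause was not tested. limma voom on recovered reads, chosen after seeing the data like the block with 6 libraries and the counts of promoters with more H3K27me3 in the first listed window, gave 15 and 118, and 152 and 376 with the block. The planned negative-binomial count tests on recovered reads were not run, since the deposited unit is log2 RPM. *EZH2* stayed negative, between -0.38 and -0.22, and uncalled in every setting. Differences that changed sign, none of them called, were *SUZ12* (0.085) and *HIST1H2BD* (0.055) without *EZH2*-/+ library 3, with ranges from -0.33 and -0.80 over the libraries left out, *HIST1H2BD* (0.16) without number 3 and *HIST1H1C* (-0.00974) without number 1. The ChIP columns have no replicate error, and genes with a few reads are limited by depth.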
